A study of Mus musculus with 3 samples.

Results

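The genes described here are Kdr, Pecam1, Cdh5, Tek, Tie1, Tal1, Runx1, Spi1, Sox17 and Sox18, 10 regulators and surface proteins of the endothelial and blood lineages, out of 22367 protein-coding genes in the annotation. They were chosen by name, and peaks were assigned to them by overlap with the gene span or by a position within 100 kb of the 5′ end of the gene, in mm9 with the GENCODE vM1 annotation. By this rule 32 of 20479 RNAP2 peaks and 9 of 10634 Med12 peaks were assigned to them. The peaks come from ChIP-seq on chromatin of wild-type mouse distal forelimbs at E12.5, with 1 library for RNA polymerase II (RNAP2), 1 for Med12, a subunit of the Mediator complex that connects transcription factors to the polymerase, and 1 input library with no antibody, for which no peak list was analysed here. The text deposited with the series gives an earlier stage than the labels and the study's methods. The tissue was dissociated to a suspension of all its cells without sorting, so that endothelial and blood cells were a part of a mixed sample. With 1 library for each antibody there is no replicate error, and no difference could be tested.

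Endothelial cells line the blood vessels that invade the early limb bud, and blood cells reach the bud through those vessels. Both lineages descend from closely related mesodermal progenitors and share ETS, GATA and SCL type transcription factors, and part of the endothelium of the embryo, marked by Sox17 and Runx1, gives rise to blood stem cells. RNAP2 gathers at the starts of genes that are transcribed or held ready for transcription, whereas Mediator is found at active enhancers as well as at starts.

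Each deposited peak carries the score of the peak caller, which is −log10 of the p-value multiplied by 10, and the lowest score in either list is 40. The p-value cut-off in the study's methods equals a score of 50, and both lists hold peaks below it. The read counts behind a peak are unknown, so a score ranks peaks within a list and is not a level of binding, and a gene with no listed peak may still be bound below this limit. The labelled tissue was compared with 10 genes of distal limb mesenchyme, the connective tissue precursors that make up most of the bud. These genes were chosen with earlier results of these data known, so they are no independent check of the tissue. All 10 had an RNAP2 peak at a start, with scores from 1725.83 to 3100. Of 4 genes of limb muscle precursors, Pax3 and Pax7 had one (283.38 and 62.94), and of 4 ectodermal genes none had one. At the ectodermal gene Fgf8 an RNAP2 peak lay 1678 bp from the 5′ end, outside the limit of 1 kb used for a start. In a mixed tissue, a small share of cells that carry a mark and a weak mark in each cell cannot be told apart.

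RNAP2 was found at the start of Kdr, Tal1 and Runx1 and at no start of the other 7 genes, where a start counted as occupied when a peak lay within 1 kb of any annotated transcript start. In the whole annotation 42.2% of protein-coding genes (9439; 95% Wilson interval 41.6 to 42.8%) had RNAP2 at a start. Of the 33 annotated starts of the 10 genes, 9 had RNAP2. Med12 was found at 0 of the 33, and so at a start of 0 of the 10 genes. Counted per gene over the whole annotation, 9.37% of protein-coding genes (9.0 to 9.76%) had Med12 at a start and 8.66% (8.29 to 9.03%) had both. Peaks with no annotated start of any gene within 1 kb were called distal. RNAP2 had a distal peak in reach of 6 of them (Pecam1, Tal1, Runx1, Spi1, Sox17 and Sox18), against 40.7% of all protein-coding genes (40.1 to 41.4%), and with a score of at least 100 only those at Runx1 and Sox17 were left. Med12 had one in reach of 3 (Cdh5, Tie1 and Runx1), against 34.9% (34.3 to 35.5%). A distal site where an RNAP2 and a Med12 peak overlapped was in reach of Runx1 alone, against 12.8% of all protein-coding genes (12.3 to 13.2%). The sets of 3 and 6 genes shared Tal1 and Runx1, while Cdh5, Tek and Tie1 had neither a start peak nor a distal peak of RNAP2. Wilson intervals cover counting error alone, and with 10 genes these shares are a description.

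**Figure D1:**
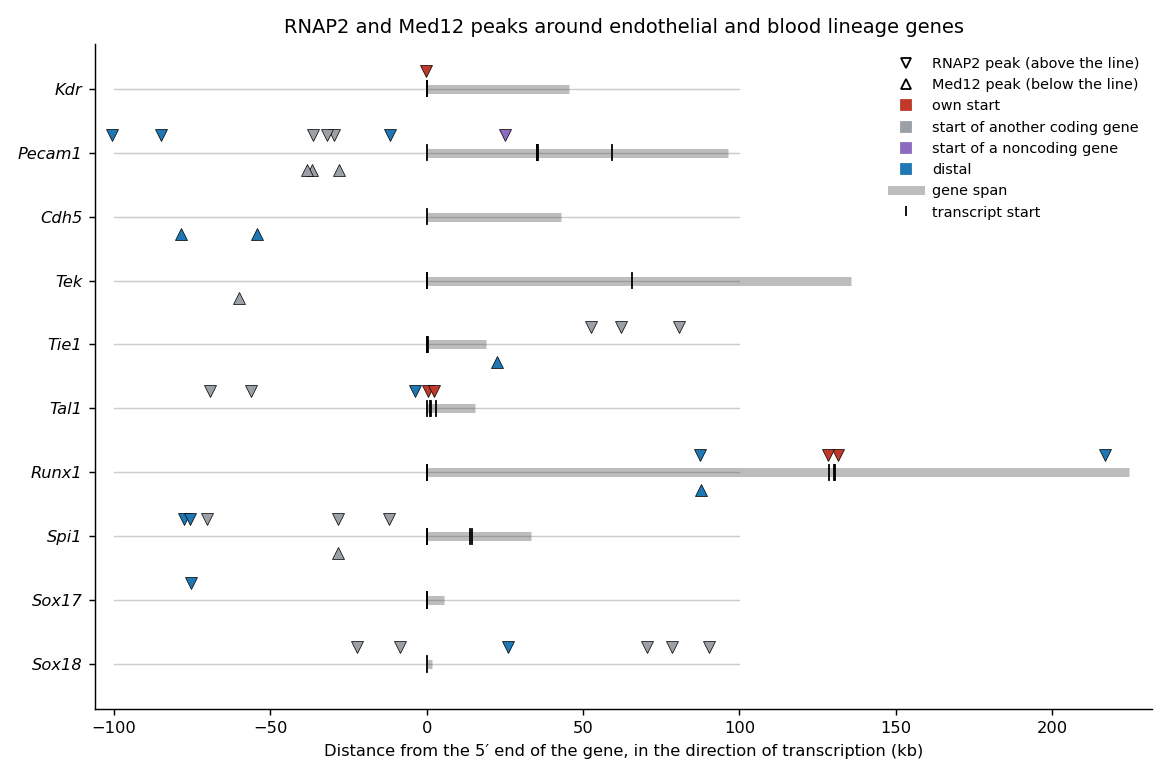
Positions of the 32 RNAP2 peaks (downward triangles above each line) and 9 Med12 peaks (upward triangles below) around the 10 genes, in kb from the 5′ end in the direction of transcription. Grey bars are gene spans, black ticks transcript starts, and colours the kind of place a peak lies in. Peaks at a gene's own start (red) appear at Kdr, Tal1 and Runx1, all 5 of them RNAP2, and most of the remaining RNAP2 peaks lie at the starts of neighbouring genes (grey, 16 peaks).

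The sequences below carry these results. The first set shows the 250 bases before the occupied starts of Kdr, Tal1 and Runx1 and, for contrast, before the outer start of Runx1, which had no peak. Another set shows 300 bases around the centre of 3 distal RNAP2 peaks: the Runx1 site shared with Med12, the site just upstream of Tal1 and the highest-scoring distal peak in reach of any of the 10 genes, upstream of Sox17. All are from mm9 and are written 5′ to 3′ on the strand of the gene. Capitals mark matches, on either strand, to 7 short words fixed for the search: AGGAAG and CGGAAG, read by ETS factors, AACAGGAA, a core of paired FOX and ETS sites that overlaps the ETS letters, AGATAA and TGATAA, read by GATA factors, and ACAAAG and ACAAT, read by SOX factors.
Kdr start, chr5:76374484-76374733, minus strand: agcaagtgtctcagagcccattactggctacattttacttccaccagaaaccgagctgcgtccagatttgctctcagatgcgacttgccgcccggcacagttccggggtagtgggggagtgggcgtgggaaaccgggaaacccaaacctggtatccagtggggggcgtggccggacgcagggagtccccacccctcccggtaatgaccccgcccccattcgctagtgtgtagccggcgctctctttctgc
Tal1 start, chr4:114728781-114729030, plus strand: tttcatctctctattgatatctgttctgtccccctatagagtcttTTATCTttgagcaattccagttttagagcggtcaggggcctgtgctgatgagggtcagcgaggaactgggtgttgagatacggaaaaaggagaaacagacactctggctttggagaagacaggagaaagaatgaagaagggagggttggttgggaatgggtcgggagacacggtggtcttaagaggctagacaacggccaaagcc
Runx1 inner start, chr16:92697574-92697823, minus strand: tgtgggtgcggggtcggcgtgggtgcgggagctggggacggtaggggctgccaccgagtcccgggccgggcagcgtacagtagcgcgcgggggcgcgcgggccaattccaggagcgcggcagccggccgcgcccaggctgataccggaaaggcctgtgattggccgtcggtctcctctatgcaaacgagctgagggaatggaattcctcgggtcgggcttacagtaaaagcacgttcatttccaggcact
Runx1 outer start, chr16:92826312-92826561, minus strand: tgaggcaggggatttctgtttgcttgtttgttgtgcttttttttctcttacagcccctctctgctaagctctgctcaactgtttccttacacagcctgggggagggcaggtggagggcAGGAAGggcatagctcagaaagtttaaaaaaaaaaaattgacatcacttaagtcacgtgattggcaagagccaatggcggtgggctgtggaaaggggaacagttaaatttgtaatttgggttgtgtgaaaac
Runx1 intron site, chr16:92738805-92739104, minus strand: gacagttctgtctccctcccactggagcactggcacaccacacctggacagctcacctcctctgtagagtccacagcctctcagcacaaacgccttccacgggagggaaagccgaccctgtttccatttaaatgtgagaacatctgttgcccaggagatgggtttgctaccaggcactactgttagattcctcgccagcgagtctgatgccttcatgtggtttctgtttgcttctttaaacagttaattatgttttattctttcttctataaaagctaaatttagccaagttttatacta
Tal1 upstream site, chr4:114725223-114725522, plus strand: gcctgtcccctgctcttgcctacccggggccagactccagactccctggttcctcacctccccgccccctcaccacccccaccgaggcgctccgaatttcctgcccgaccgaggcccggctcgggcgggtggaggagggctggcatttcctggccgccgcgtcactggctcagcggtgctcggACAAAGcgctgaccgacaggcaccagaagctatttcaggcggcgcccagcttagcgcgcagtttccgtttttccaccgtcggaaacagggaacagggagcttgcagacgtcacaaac
Sox17 upstream site, chr1:4561796-4562095, minus strand: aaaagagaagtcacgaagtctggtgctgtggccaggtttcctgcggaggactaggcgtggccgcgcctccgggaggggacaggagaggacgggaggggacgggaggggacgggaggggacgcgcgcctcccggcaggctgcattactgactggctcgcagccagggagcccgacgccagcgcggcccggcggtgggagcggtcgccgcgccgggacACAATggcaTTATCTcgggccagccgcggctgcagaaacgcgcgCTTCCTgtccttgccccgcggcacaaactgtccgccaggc

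A match to such a word describes letters and is not a bound site. Before the Tal1 start, AGATAA was present once on the opposite strand (TTATCT), and 9.33% of the 250-base windows before the 22367 genes hold that word. The window before the outer Runx1 start held AGGAAG, as 29.0% of these windows do. None of the 7 words was found before the Kdr start, before the inner Runx1 start or in the printed window of the Runx1 intron site. That window is centred on the RNAP2 peak. The window centred on the Med12 peak of the same site held ACAAT, as 49.2% of distal Med12 windows do. The site upstream of Tal1 held ACAAAG, present in 25.8% of the 10692 distal RNAP2 windows. Upstream of Sox17, ACAAT (42.9% of distal RNAP2 windows), AGATAA on the opposite strand (13.4%) and AGGAAG on the opposite strand (29.1%) all occurred.

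Of the 3 receptor tyrosine kinases among the 10 genes, Kdr had RNAP2 at its start and Tek and Tie1 did not. Kdr, the main receptor for vascular endothelial growth factor, spans chr5:76328852-76374483 on the minus strand. One RNAP2 peak of 1426 bp, at chr5:76373840-76375265, covered both of its annotated starts, with its centre 69 bp upstream of the 5′ end. Its score of 148.26 was above the median of the RNAP2 list (123.39) but below the median of the 9307 peaks at protein-coding starts (307.56), of which 30.3% scored as low or lower. No other RNAP2 peak and no Med12 peak was in reach of Kdr, and the nearest Med12 peak (score 316.04) lay 573109 bp away.

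Tek, the receptor for angiopoietins, had no RNAP2 peak over its span of 135688 bp (chr4:94405980-94541667, plus strand) or within 100 kb of its 5′ end, and the nearest, with a score of 318.49, was 124243 bp away. Its only assigned peak was one of Med12 with a score of 40.55, close to the lowest score in the list, which lay 59602 bp upstream at the start of Ift74, a gene of cilium transport. Tie1, the partner receptor of Tek, lies at chr4:118143796-118162666 on the minus strand. RNAP2 was absent from its 3 starts, and the RNAP2 peaks in its reach were those at the starts of Cdc20 (729.9), Elovl1 (110.79) and Med8 (432.24), the nearest of them 51965 bp from the Tie1 5′ end. The starts of these neighbours were occupied while that of Tie1 was not. A distal Med12 peak at chr4:118139716-118140875 lay past the end of Tie1, 21791 bp from its 5′ end. Its score was 42.88, and 14.2% of the 8567 distal Med12 peaks scored as low or lower.

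Both genes for proteins of endothelial cell junctions lacked RNAP2 at their starts. Cdh5 (VE-cadherin), at chr8:106625525-106668402 on the plus strand, had no RNAP2 peak in reach, and the nearest one (71.42) lay 148803 bp away. It did have 2 distal Med12 peaks in the intergenic stretch upstream, at chr8:106546429-106547487 (score 55.7) and chr8:106570836-106571765 (score 58.24), which ended 78038 and 53760 bp before its start. Cdh5 was the nearest protein-coding gene to both. These scores were at the middle of the list, with 50.9% and 55.4% of distal Med12 peaks at or below them, and neither overlapped an RNAP2 peak.

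Pecam1, an adhesion protein of endothelium, platelets and leukocytes, at chr11:106515531-106611942 on the minus strand, differed from Cdh5 in having RNAP2 but no Med12 peak at distal sites. None of its 7 annotated starts had a peak, yet it had the most RNAP2 peaks in reach of the 10 genes, 7 in all. One of these, with a score of 141.06, lay inside the gene on a small U3 RNA in an intron, 9600 bp from the nearest Pecam1 start. At the starts of Polg2 and of Ddx5 with Ccdc45, upstream, peaks had scores of 561.1, 154.99 and 3100, and the 3 Med12 peaks in reach (48.52, 68.52 and 176.08) were at the same starts. Ddx5 encodes an RNA helicase present in most cells. The 3 distal RNAP2 peaks were in introns of neighbours, at chr11:106623099-106624013 in Gm885 (45.14) and at chr11:106695877-106697831 (66.17) and chr11:106711781-106713034 (43.75) in Smurf2. Between 9.83 and 42.0% of distal RNAP2 peaks scored as low or lower, and the outermost was 99839 bp from the 5′ end, just inside the limit of 100 kb.

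Among the blood regulators, Tal1 and Runx1 had RNAP2 at starts and Spi1 did not. Tal1 (SCL), a helix-loop-helix factor needed for the first blood and for vessel remodelling, lies at chr4:114729031-114744360 on the plus strand. All 4 of its starts had RNAP2 within 1 kb. A peak at chr4:114728730-114730375 had a score of 205.19 and a second at chr4:114730507-114732388 one of 95.02, with a difference of 132 bp between the end of one and the start of the next. Of the RNAP2 peaks at protein-coding starts, 38.6% and 19.7% scored as low or lower. A distal peak at chr4:114724829-114725918 (72.11) ended 3113 bp before the 5′ end, and Tal1 was the nearest protein-coding gene to it. Beyond these, the starts of Stil (582.96), a centriole gene, and Cmpk1 (931.61), a nucleotide kinase gene, carried higher scores than Tal1 itself. No Med12 peak was within reach of Tal1, and the nearest (196.08) lay 233990 bp away.

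Runx1, the factor required for blood stem cells to form from endothelium, had the highest start score of the 10 genes and the only distal site with both proteins. It spans 224600 bp, chr16:92601712-92826311 on the minus strand, and its 5 annotated starts fall into 2 groups, known as the distal and proximal promoters. The outer starts, at 92826256 and 92826311, had no peak of either list, and the nearest RNAP2 peak was 86669 bp from the 5′ end. At the inner starts (92695895, 92696255 and 92697573), a peak at chr16:92696931-92699264 had a score of 563.84, with 66.1% of the peaks at protein-coding starts at or below it, and a peak of 76.81 at chr16:92694216-92695261 lay 634 bp from the nearest start. Thus RNAP2 was found at the inner promoter and not at the outer one. In the whole annotation, 4616 protein-coding genes had starts more than 2 kb apart and RNAP2 at one of them at least, and 479 of these (10.4%) had none at the 5′ end, as Runx1 did.

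In an intron between the promoters of Runx1, RNAP2 at chr16:92738269-92739642 (142.91) and Med12 at chr16:92738226-92739307 (51.89) overlapped over 1039 bp. The site lay 40653 bp upstream of the nearest inner start. The RNAP2 score there was above 75.7% of the 10692 distal RNAP2 peaks or equal to them, whereas the Med12 score ranked lower, at 42.9% of distal Med12 peaks. A further intronic RNAP2 peak, at chr16:92609018-92610109 (56.49), lay near the 3′ end of the gene, 216202 bp from the 5′ end. No start of any other gene was in reach with a peak, so that all 5 peaks assigned to Runx1 were inside its span.

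Spi1 (PU.1, listed as Sfpi1 in the annotation), the ETS factor of macrophages and B cells, had no peak at its 4 starts (chr2:90922547-90955913, plus strand). Its neighbours upstream did: Slc39a13, a zinc transporter gene, with an RNAP2 score of 383.35 at 11215 bp from the Spi1 5′ end, Psmc3, a proteasome gene, with RNAP2 at 334.17 and Med12 at 60.75, and a start of Celf1, an RNA-binding protein gene, with 45.48. Both distal RNAP2 peaks assigned to Spi1, at chr2:90844390-90845384 (61.99) and chr2:90845754-90847824 (99.97), were centred in exons of Celf1, whose nearest start was 5654 and 4822 bp away, and which lay 77163 and 74723 bp from the Spi1 5′ end. They therefore lay nearer to Celf1 than to Spi1.

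Neither SOX gene had a start peak. Sox17, a factor of arterial endothelium and of endoderm, at chr1:4481009-4486494 on the minus strand, had 1 RNAP2 peak in reach and no Med12 peak, the nearest of which (55.05) was 360846 bp away. The RNAP2 peak, at chr1:4561242-4562651 in intergenic sequence 74748 bp upstream, had a score of 269.83. This was the highest of the 10 distal RNAP2 peaks, at or above 89.1% of the distal list, and Sox17 was the nearest protein-coding gene. Sox18, a factor of early endothelium and lymphatic vessels, at chr2:181404541-181406345 on the minus strand, lies among genes that did have RNAP2. Peaks were at the starts of Tcea2 (131.15, at 8029 bp from the Sox18 5′ end), Rgs19 (214.43), Prpf6 (506.97), Prpf6 with Znf512b (99.87) and Uckl1 (121.26). Its only distal peak, at chr2:181379905-181381059 (67.21), was in an intron of Prpf6, 25286 bp from Sox18, the nearest protein-coding gene by its start, and no Med12 peak lay within 100 kb (nearest 155942 bp).

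By kind of place, 5 of the 32 RNAP2 peaks lay at a start of the assigned gene, 16 at the start of another protein-coding gene, 1 at a noncoding start and 10 at distal sites. The 16 peaks at other genes had a median score of 358.76 (45.48 to 3100), and the 10 distal peaks one of 66.69 (43.75 to 269.83), near the median of all distal RNAP2 peaks (76.195). Of the 9 Med12 peaks, 5 were at starts of other protein-coding genes (40.55 to 176.08) and 4 were distal, with a median of 53.795 beside 55.18 for all distal Med12 peaks. Counted per gene, the median was 3.5 RNAP2 peaks in reach (0 to 7) and 1 Med12 peak (0 to 3), where all protein-coding genes had medians of 2 and 1.

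**Figure D2:**
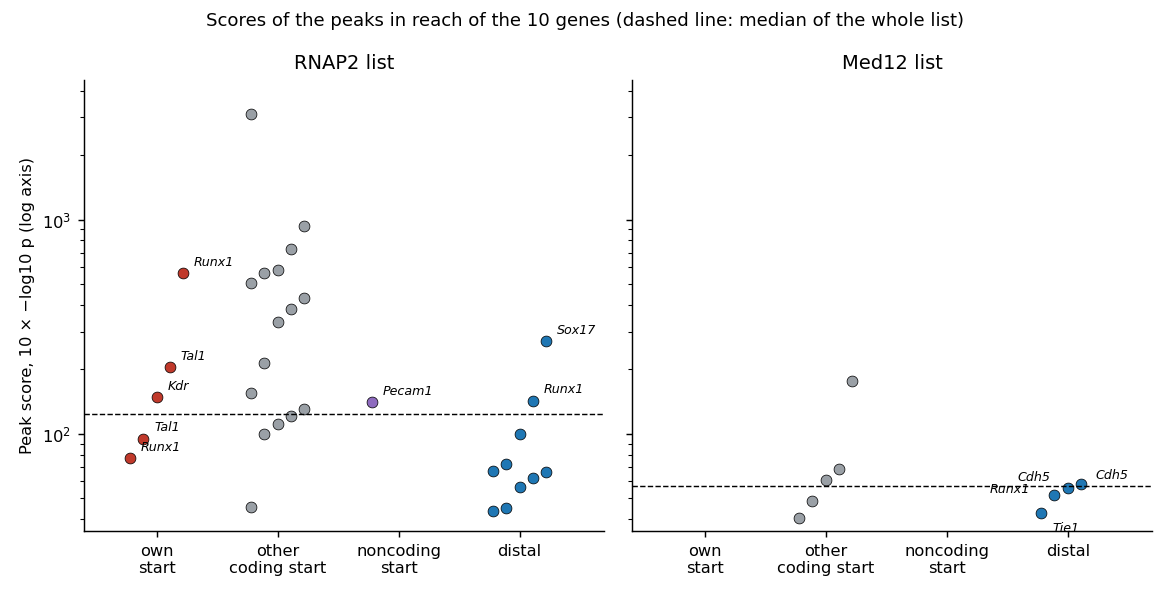
Score of each assigned peak (log axis, −log10 of p multiplied by 10) by the kind of place it lies in, for RNAP2 on the left and Med12 on the right. Each point is 1 peak of a single library, and dashed lines are the medians of the whole lists (123.39 and 56.775). RNAP2 peaks at own starts run from 76.81 to 563.84, and the Med12 panel has no point at an own start.

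The occupied starts were richer in CpG dinucleotides than the unoccupied ones. In the 500 bases around each start, the 9 starts with RNAP2 had 18 to 44 CpG, while 23 of the 24 starts without RNAP2 had 5 to 15. Sox18 was the exception, with 40 CpG and no peak. Many of these windows overlap, because starts of the same gene lie close together. The 9 occupied starts belong to Kdr, Tal1 and Runx1 alone, so the starts are not separate observations. At Runx1 the occupied inner starts had 18 to 44 CpG and the outer starts 7 and 8, and the printed windows before them show the same contrast, with 27 CpG against 2. The printed windows before the occupied starts of Kdr and Tal1 had 16 and 6 CpG. Over the whole annotation, occupied 5′ ends were also richer in CpG in the 500 bases around them. Those with RNAP2 (8953 genes) had a median of 41 CpG (quartiles 31 and 52). Those without (13414 genes) had a median of 9 (4 and 24). Of 5′ ends with at least 40 CpG, as at Sox18, 74.0% had RNAP2 (4777 of 6453), and of those with 15 or fewer, 5.98% had it (559 of 9346). The part of base composition in the counts of occupied starts was not tested.

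**Figure D3:**
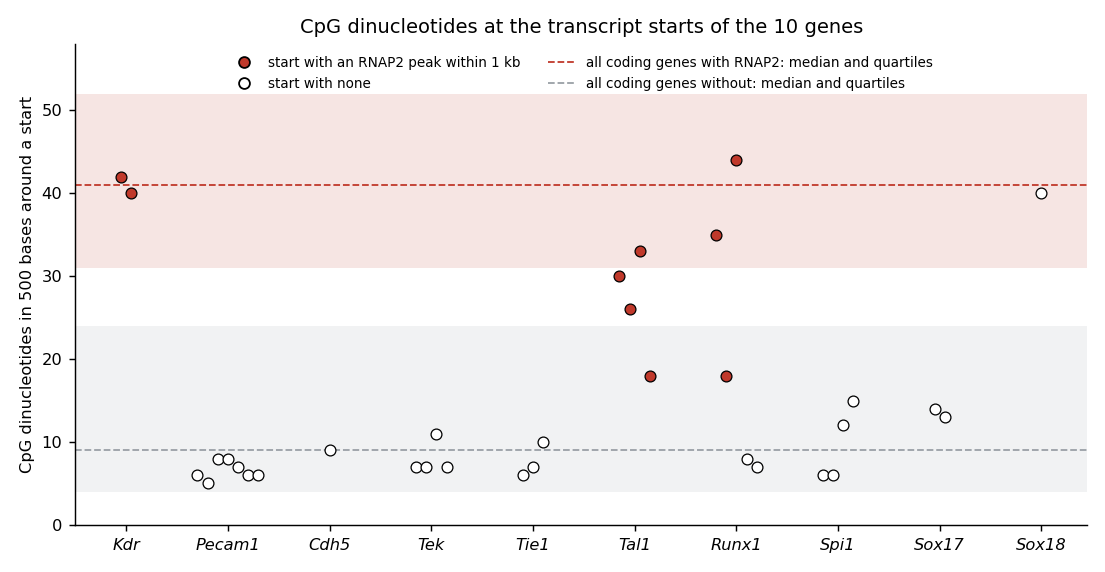
CpG dinucleotides in the 500 bases around each of the 33 annotated starts of the 10 genes, filled red where an RNAP2 peak lay within 1 kb and open where none did. Bands and dashed lines give the quartiles and medians over the 5′ ends of all protein-coding genes with RNAP2 (red, median 41) and without (grey, median 9). Every start of Kdr and Tal1 is filled, Runx1 has filled and open points, and Sox18 is the open point at 40.

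Base composition also set 2 of the distal RNAP2 sites apart. The 300-base window upstream of Tal1 had 25 CpG and that upstream of Sox17 had 34, with 66.3% and 70.7% G or C, while the other 8 distal RNAP2 windows had 0 to 5 CpG. In the distal RNAP2 list the median was 3 CpG and 43.7% G or C, and windows with as many CpG as these made up 1.91% (204 windows) and 0.673% (72 windows) of it. No start of any annotated gene lay within 1 kb of either site. The 10 distal RNAP2 windows held AGGAAG in 4 cases, ACAAAG in 5, ACAAT in 3, AGATAA in 3 and TGATAA in 2, and CGGAAG and AACAGGAA in 0. Over all distal RNAP2 windows the shares were 29.1%, 25.8%, 42.9%, 13.4%, 12.4%, 5.26% and 3.28%, in the same order. Of the 4 distal Med12 windows, CGGAAG was found in 1, ACAAAG in 1, AGATAA in 0, TGATAA in 0 and AACAGGAA in 0. AGGAAG and ACAAT were each in 3, the former in both windows upstream of Cdh5 and in the one beyond Tie1, beside 27.7% and 49.2% of all distal Med12 windows. The shares of all distal Med12 windows with the other words were 2.94% for CGGAAG, 26.8% for ACAAAG, 16.1% for AGATAA, 15.3% for TGATAA and 3.13% for AACAGGAA.

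Further genes of both lineages were taken from lists of 20 each. In the endothelial list 3 genes (15%) had RNAP2 at a start. These were Erg (1090.27), Fli1 (634.9) and Ets1 (291.37), which encode ETS factors that are also made outside the endothelium, and Erg and Ets1 had Med12 at a start too, with scores of 60.84 and 55.12. The 17 other genes, among them the ETS factor gene Etv2, the receptors Flt1 and Flt4 and the junction gene Cldn5, had no peak of either list at a start. At Flt1 an RNAP2 peak lay 1263 bp from the 5′ end, just outside the limit of 1 kb. In the blood list 4 genes (20%) had RNAP2 at a start, and 0 had Med12 there. The 4 were the receptor gene Kit (283.27), which neural crest derivatives also express, and the factors Gata2 (199.8), Myb (82.18) and Lmo2 (77.5). Which cells carried the start peaks of both lists, or those of Kdr, Tal1 and Runx1, was not tested. The genes for red cell and macrophage products in the blood list, such as Hba-a1, Hbb-b1, Csf1r and Cx3cr1, had no start peak. The study kept uniquely mapped reads, and whether this affected genes with similar copies, such as the globin genes, was not tested.

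Away from starts, 10 of 20 endothelial and 10 of 20 blood genes had a distal RNAP2 peak in reach, and 10 and 7 had a distal Med12 peak, with a shared distal site for 4 and 2. Over all protein-coding genes these shares were 40.7%, 34.9% and 12.8%. With 20 genes in each list, the counts were not tested against this background. In the mesenchymal list, by contrast, RNAP2 was at a start of 10 of 10 genes, Med12 at a start of 3 (Prrx1, Twist1 and Hand2), and a shared distal site was in reach of 8. The best start score of an occupied gene had a median of 205.19 in Kdr, Tal1 and Runx1 and 140.99 in the blood list, below the 383.3 of all occupied protein-coding genes, and of 634.9 in the endothelial list and 1980.015 in the mesenchymal list, above it. The highest score of Kdr, Tal1 and Runx1, 563.84, was thus below the lowest of the mesenchymal list, 1725.83. These are values of 1 library, and the lists were chosen with earlier results of these data known. The lists were not tested against each other.

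**Figure D4:**
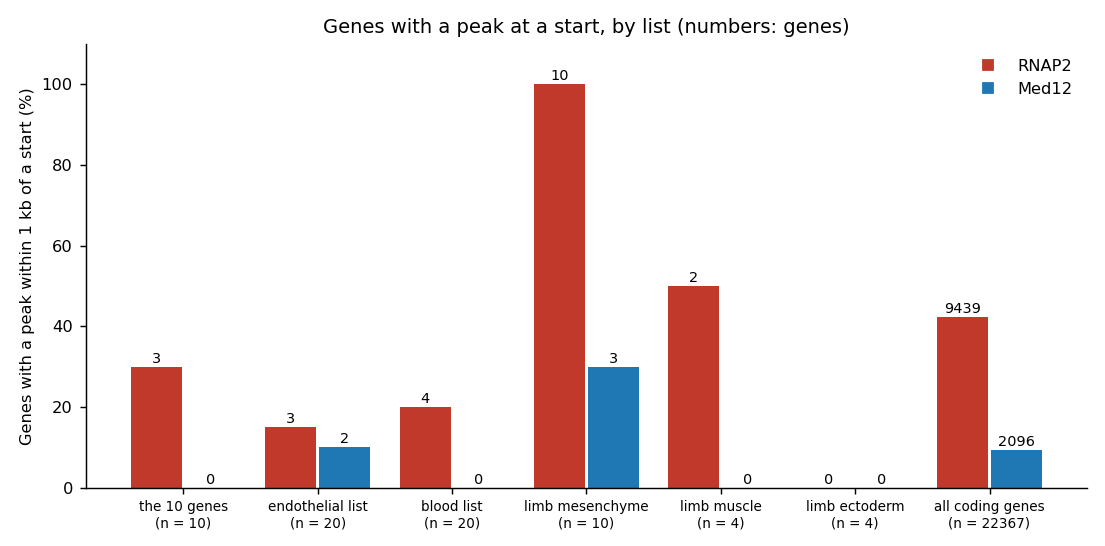
Percentage of genes in each list with a peak within 1 kb of an annotated start, for RNAP2 (red) and Med12 (blue), with the number of genes above each bar. The 10 genes, the endothelial list and the blood list stand at 30, 15 and 20% for RNAP2, below the bar for all protein-coding genes (42.2%), and the mesenchymal list at 100%. The gene lists were chosen with earlier results of these data known.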

How the data were processed

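Cells from distal forelimbs were fixed with formaldehyde, and chromatin was immunoprecipitated by the authors with antibodies to RNAP2 or Med12. The authors aligned the trimmed reads with Bowtie (mm9), dropped redundant ones and used MACS 1.4.1 as the peak caller. Whether the input was the control is not named in the settings given. The deposited score of a peak is −log10 of the p-value multiplied by 10, and the deposited lists hold no read counts, so depth per sample is not given by them. The study's methods give read totals, with fewer processed reads for Med12 than for RNAP2 and less DNA in its library. Peaks were set against GENCODE vM1 with Python 3.11.15, numpy 2.4.6 and scipy 1.17.1, and figures were drawn with matplotlib 3.10.9. A start was occupied with a peak within 1 kb of an annotated transcript start, a distal peak had no annotated start of any gene within 1 kb, and overlap meant at least 1 shared base. Shares have 95% Wilson intervals. The search was tested on simulated peaks. Every one of the 10 genes is named, other genes where their start is nearest to or within 1 kb of an assigned peak, and, of the further lists, those with Med12 at a start and up to 6 by RNAP2 start score. The genes named from those lists for lack of a start peak were chosen after their values were seen. The 10 genes and the lists were chosen with earlier results of these data known. The alternatives were score minimums of 50 and 100, a start interval of 5 kb, the 5′ end alone, a reach of 50 kb, the nearest gene alone and an overlap of 50%. Some neighbouring and listed genes are not reported here.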

Additional observations from a re-analysis of the deposited data

How the results depend on the processing

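No paired analysis was possible because there are no replicates and no test was run. Of 71 values recomputed under 7 alternatives, 50 stayed within their limits and 21 moved. The limits were wide for small counts. A fall from 9 to 6 assigned Med12 peaks counted as within them, as did 3 to 2 genes with RNAP2 at a start. Some of the 50 could not move, because the reach, the nearest-gene rule and the overlap share do not enter the counts of start peaks. Med12 remained at 0 starts of the 10 genes under all 7. A higher score minimum or the 5′ end alone can only lower a start count. Only the start interval of 5 kb could therefore have raised this count above 0. RNAP2 stayed at a start of 3 genes under all except the 5′ end alone, which gave 2 (Kdr and Tal1), since the occupied starts of Runx1 are inner ones. At a score of at least 100 the assigned peaks fell from 32 to 20 for RNAP2 and from 9 to 1 for Med12, the distal peaks to 2 and 0, and the shared distal site of Runx1 was lost (0 sites, 0 genes), because its Med12 score is under 100. The shares of all protein-coding genes with a start peak were then 35.6% for RNAP2 and 2.36% for Med12. They were 40.8% and 6.97% at a score of at least 50, 45.3% and 12.6% with a start interval of 5 kb, and 40% and 8.2% for the 5′ end alone. At a score of at least 50, 29 RNAP2 and 6 Med12 peaks were assigned, 8 and 3 of them distal. With 5 kb the distal RNAP2 peaks numbered 5. A reach of 50 kb left 18 RNAP2 peaks, of which 5 were distal, and 2 distal Med12 peaks. Assigned to the nearest gene alone, 11 RNAP2 peaks remained, 5 of them distal, and 3 Med12 peaks. The Med12 peaks at Ift74 and beyond Tie1 were close to the lowest score and under 50. The lists give no read counts by which to judge them.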
